A study of Mus musculus with 16 samples.

Results

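Probes for Atf4 and 9 other genes of the integrated stress response and the unfolded protein response were followed across mouse embryonic stem (ES) cells. Members were all probes whose platform gene symbol was Atf4, Ddit3, Atf3, Chac1, Trib3, Asns, Sesn2, Hspa5, Xbp1 or Herpud1. These are 10 of 16593 genes named on the array, and 15 of its 25697 probes, with 3 for Asns and 2 each for Ddit3, Sesn2 and Herpud1. The detection filter passed 14 of the 15 probes, covering 9 of the 10 genes.

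RNA was taken from 4 groups of 3 cultures and hybridised to 16 Illumina bead arrays, since culture 3 of each group was measured on 2 arrays. Wild-type ES cells of the CCE line were left untreated, or were given 20 mM sodium chlorate (an inhibitor of sulfation, heparan sulfate included) for 24 h, or for 24 h with 5 µM SU5402, an inhibitor of FGF receptors. The fourth group was untreated Ndst1/2-/- ES cells, which lack a pair of enzymes that begin heparan sulfate sulfation. All groups were grown on gelatin in medium with serum and LIF. The labels do not give the parental line of the Ndst1/2-/- cells or the number of clones, so genotype and cell line cannot be told apart. Probes for Ndst1 and Ndst2 were not analysed here, and the deletion was therefore not checked.

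Arrays detected 12022 to 12821 probes and had mean intensities of 369 to 454. The ES cell markers Pou5f1, Sox2, Nanog, Utf1, Dppa5a, Tdgf1, Zfp42 and Esrrb (8 of 8) were detected on all 4 arrays of every group. Their summed linear intensity was 57990 to 58930 per untreated culture and 63290 to 65660 per Ndst1/2-/- culture. With chlorate it was 61220 to 65990, and with SU5402 61810 to 64160. By limma at a Benjamini-Hochberg adjusted p under 0.05 against untreated cells, 4 of the 8 were higher and 2 lower with chlorate. With SU5402 these were 4 and 2, and in Ndst1/2-/- cells 3 and 2. Among all tested probes 14.2% were called in each direction with chlorate, and 11.9% higher and 11.6% lower with SU5402. In Ndst1/2-/- cells 30.4% were higher and 32.2% lower. Markers of primitive endoderm summed to 402 to 427 in untreated cultures, 499 to 551 with chlorate, 485 to 519 with SU5402 and 238 to 275 in Ndst1/2-/- cultures. Of the 4 tested, 1 was higher and 2 lower in Ndst1/2-/- cells, and with each treatment 1 was higher and 1 lower. Sox17 was detected in no group, Gata4 neither with chlorate nor in Ndst1/2-/- cultures, and Gata6 not in Ndst1/2-/- cultures. Trophoblast markers summed to 138 to 149, 159 to 170, 164 to 170 and 87.5 to 98.8 in the same order, with 0 of 4 detected in the last. Fibroblast markers summed to 305 to 346, 275 to 290, 265 to 296 and 213 to 229, with 7 of 8 undetected in Ndst1/2-/- cultures. Of these, Col1a2, S100a4, Col3a1 and Postn were detected in no group. All 4 fibroblast markers tested were lower in Ndst1/2-/- cells, 2 were lower with chlorate and 1 with SU5402, and 0 were higher. Of the 3 trophoblast markers tested, 2 were lower and 0 higher in Ndst1/2-/- cells, and with each treatment 1 was higher and 0 lower. The sums include undetected probes, which add background signal. Neuroectoderm markers summed to 223 to 271, 233 to 273, 293 to 319 and 216 to 220, with Sox1 and Pax6 detected in no group. The 1 neuroectoderm marker tested was higher with SU5402, lower in Ndst1/2-/- cells and not called with chlorate. These marker signals thus moved with the groups, and their part in the results below was not tested. A bulk array cannot tell a change in the share of cells from a change in RNA per cell.

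In the integrated stress response, kinases that sense amino acid shortage, unfolded protein, double-stranded RNA or haem shortage phosphorylate the initiation factor eIF2. Most protein synthesis then slows, while the mRNA of the transcription factor ATF4 is translated more. ATF4 switches on genes for amino acid synthesis and transport, for the regulators CHOP (Ddit3), ATF3 and TRIB3, and for the enzyme CHAC1. The unfolded protein response of the endoplasmic reticulum (ER) shares its PERK branch with this pathway, and has the further branches IRE1-XBP1 and ATF6, which act on chaperone genes such as Hspa5. Arrays measure mRNA only, and neither eIF2 phosphorylation, ATF4 protein nor Xbp1 splicing was measured.

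Promoter windows of the members were searched because ATF4 targets are known by a C/EBP-ATF response element (CARE) and ER stress genes by the ER stress response elements ERSE and ERSE-II. RefSeq windows of build GRCm38.p6, running from 250 bases before to 50 bases after the annotated start, were matched for all 10 genes. The CARE letters TGATGNAA, read on both strands, occurred in 5 of the 10 windows (Chac1, Asns, Herpud1, Trib3 and Atf3) and in 3.97% of all 32851 windows of that length. ERSE, the letters CCAAT and CCACG spaced by 9 bases, occurred in the Hspa5 window and in 0.119% of all windows. ERSE-II, the letters ATTGG and CCACG spaced by 1 base, occurred in the Herpud1 window and in 0.0365% of all windows. The cyclic AMP response element TGACGTCA occurred in 0 member windows and 1.79% of all windows. No match overlapped another. The sequences below show the matched letters in capitals, on the strand of the gene, for the 4 genes with a CARE match that rose in Ndst1/2-/- cells and for Hspa5. The first is Chac1 (chr2:119350992-119351241, plus strand), the next Asns (chr6:7693210-7693459, minus strand) and Herpud1 (chr8:94386179-94386428, plus strand), each the 250 bases before the start. The Trib3 stretch (chr2:152344028-152344057, minus strand) covers positions 4 to 33 after the start, and Hspa5 (chr2:34771840-34772089, plus strand) again the 250 bases before it.
Chac1: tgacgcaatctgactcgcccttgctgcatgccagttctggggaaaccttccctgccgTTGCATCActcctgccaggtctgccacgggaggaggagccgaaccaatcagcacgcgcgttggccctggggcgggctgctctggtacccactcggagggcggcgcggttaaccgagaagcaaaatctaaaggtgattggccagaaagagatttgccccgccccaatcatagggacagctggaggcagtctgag
Asns: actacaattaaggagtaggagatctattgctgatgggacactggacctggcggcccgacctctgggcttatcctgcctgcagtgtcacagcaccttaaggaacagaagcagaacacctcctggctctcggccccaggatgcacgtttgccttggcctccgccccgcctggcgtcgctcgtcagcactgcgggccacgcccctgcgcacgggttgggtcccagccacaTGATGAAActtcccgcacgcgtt
Herpud1: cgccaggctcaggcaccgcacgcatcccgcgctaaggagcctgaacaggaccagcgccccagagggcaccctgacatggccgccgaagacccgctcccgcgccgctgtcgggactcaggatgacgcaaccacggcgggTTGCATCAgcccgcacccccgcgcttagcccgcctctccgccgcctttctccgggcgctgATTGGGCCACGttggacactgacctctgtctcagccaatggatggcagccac
Trib3: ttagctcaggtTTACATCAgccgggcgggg
Hspa5: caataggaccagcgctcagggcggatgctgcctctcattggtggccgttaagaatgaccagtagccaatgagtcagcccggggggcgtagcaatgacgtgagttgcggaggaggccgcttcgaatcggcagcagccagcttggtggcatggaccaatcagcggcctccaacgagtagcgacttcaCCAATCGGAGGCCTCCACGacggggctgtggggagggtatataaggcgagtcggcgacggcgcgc
A match describes the letters only. The genes were chosen as members of pathways known by these elements, so the shares of windows are not a test of enrichment. The map of motif matches shows that the CARE letters lay at -193 in Chac1, -112 in Herpud1, -110 in Atf3, -23 in Asns and 15 in Trib3, counted in bases from the start, while the ERSE of Hspa5 began at -65 and the ERSE-II of Herpud1 at -52.

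**Figure D1:**
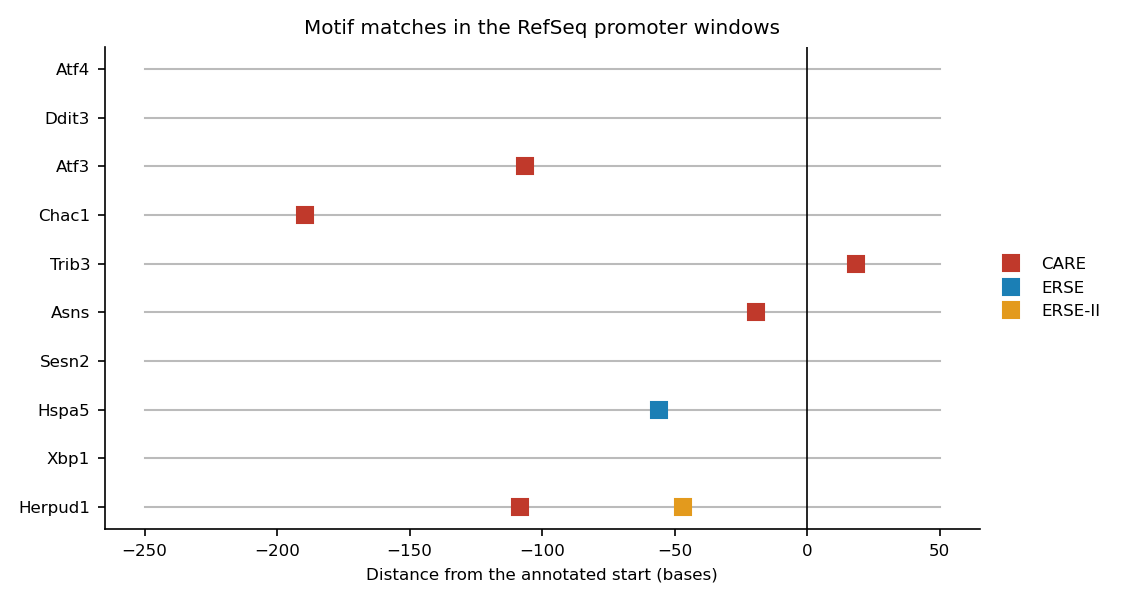
Positions of motif matches in the RefSeq promoter windows of the 10 genes. The horizontal axis is the distance from the annotated start in bases, grey lines are the windows, and squares mark CARE (red), ERSE (blue) and ERSE-II (orange) matches. CARE squares stand in 5 of the 10 windows, and Herpud1 holds both CARE and ERSE-II.

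The comparison of Ndst1/2-/- with untreated wild-type cells asked how these genes differ in the mutant line. Genotype and cell line cannot be told apart in it. Atf4 and 4 other members, Herpud1, Asns, Chac1 and Trib3, were higher in the Ndst1/2-/- cells, by 0.59 log2 units for the first Asns probe up to 1.39, or 2.63-fold, for Atf4. Ddit3, Sesn2, Hspa5 and Xbp1 did not pass the test. In all, 8 of 14 member probes (5 of 9 genes) were higher and 0 lower, by limma at a Benjamini-Hochberg adjusted p under 0.05. In the same comparison 30.4% of all 13377 tested probes were called higher, and 62.7% were called in either direction. The median log2 difference was 0.60 over the member probes and 0.0006 over all tested probes.

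Atf4, on chromosome 15, encodes the transcription factor at the centre of the pathway. Its normalised log2 intensities in cultures 1, 2 and 3 were 7.44, 7.28 and 7.23 in untreated cells, 7.25, 7.21 and 7.11 with chlorate, 6.86, 7.30 and 7.42 with SU5402, and 8.67, 8.77 and 8.69 in Ndst1/2-/- cells. The 3 Ndst1/2-/- cultures lay above all 9 wild-type cultures, among which the 3 groups overlapped. The log2 difference from untreated was 1.39 ± 0.12 (limma, Benjamini-Hochberg adjusted p = 3.9e-07). The SE here and below is moderated and comes from the model of all 12 cultures, 3 a group. It ranked 231 of 13377 tested probes, counted from the greatest increase. With chlorate the difference was -0.13 ± 0.12 (95% interval -0.38 to 0.13; limma, adjusted p = 0.454) and with SU5402 -0.13 ± 0.12 (-0.38 to 0.13; adjusted p = 0.486), so neither treatment changed Atf4 detectably here. SU5402 culture 1 was the lowest of all 12, and without it the SU5402 difference was 0.04. Atf4 mRNA therefore stood in the order Ndst1/2-/-, untreated, SU5402, chlorate, in which the last 3 did not differ beyond their spread.

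Herpud1, on chromosome 8, encodes an ER membrane protein that takes part in ER-associated degradation. Its first probe read 8.58, 8.64 and 8.57 in untreated cells, 8.35, 8.41 and 8.42 with chlorate, 8.45, 8.38 and 8.39 with SU5402, and 9.69, 9.70 and 9.63 in Ndst1/2-/- cells. Groups of the mutant, the untreated and the treated cells did not overlap, whereas chlorate and SU5402 overlapped each other. In Ndst1/2-/- cells the first probe was 1.08 ± 0.05 log2 units higher (limma, Benjamini-Hochberg adjusted p = 2.31e-09) and the second 1.09 ± 0.07 (adjusted p = 4.97e-08), which is 2.11-fold and 2.13-fold.

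Asns, on chromosome 6, encodes asparagine synthetase, a classical target of amino acid shortage. Its second probe read 10.67, 10.67 and 10.71 in untreated cells, 10.32, 10.35 and 10.44 with chlorate, 10.60, 10.66 and 10.62 with SU5402, and 11.37, 11.47 and 11.52 in Ndst1/2-/- cells. The mutant cultures were highest and the chlorate cultures lowest, with no overlap. The 3 probes rose in Ndst1/2-/- cells by 0.59 ± 0.06, 0.77 ± 0.06 and 0.72 ± 0.07 log2 units (limma with Benjamini-Hochberg, adjusted p = 3.62e-06, 1.2e-07 and 1.12e-06). All 3 probes thus gave the same direction, over a range of 0.59 to 0.77.

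Chac1, on chromosome 2, encodes a glutathione-degrading enzyme induced downstream of ATF4. It read 9.04, 8.86 and 8.84 in untreated cells, 8.21, 8.35 and 8.21 with chlorate, 8.46, 8.43 and 8.58 with SU5402, and 9.65, 9.56 and 9.52 in Ndst1/2-/- cells. All 4 groups were separate, in the order Ndst1/2-/-, untreated, SU5402, chlorate. The difference in Ndst1/2-/- cells was 0.66 ± 0.07 log2 units, or 1.58-fold (limma with Benjamini-Hochberg, adjusted p = 4.58e-06).

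Trib3, on chromosome 2, encodes a pseudokinase that restrains ATF4. Its values were 6.07, 6.17 and 5.89 in untreated cells, 5.83, 5.61 and 5.80 with chlorate, 5.80, 5.53 and 5.80 with SU5402, and 6.89, 6.62 and 6.46 in Ndst1/2-/- cells. The mutant cultures again lay above every wild-type culture, with the widest spread of the 4 groups (SD 0.22). The difference from untreated was 0.61 ± 0.12 log2 units (limma with Benjamini-Hochberg, adjusted p = 0.000534).

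**Figure D2:**
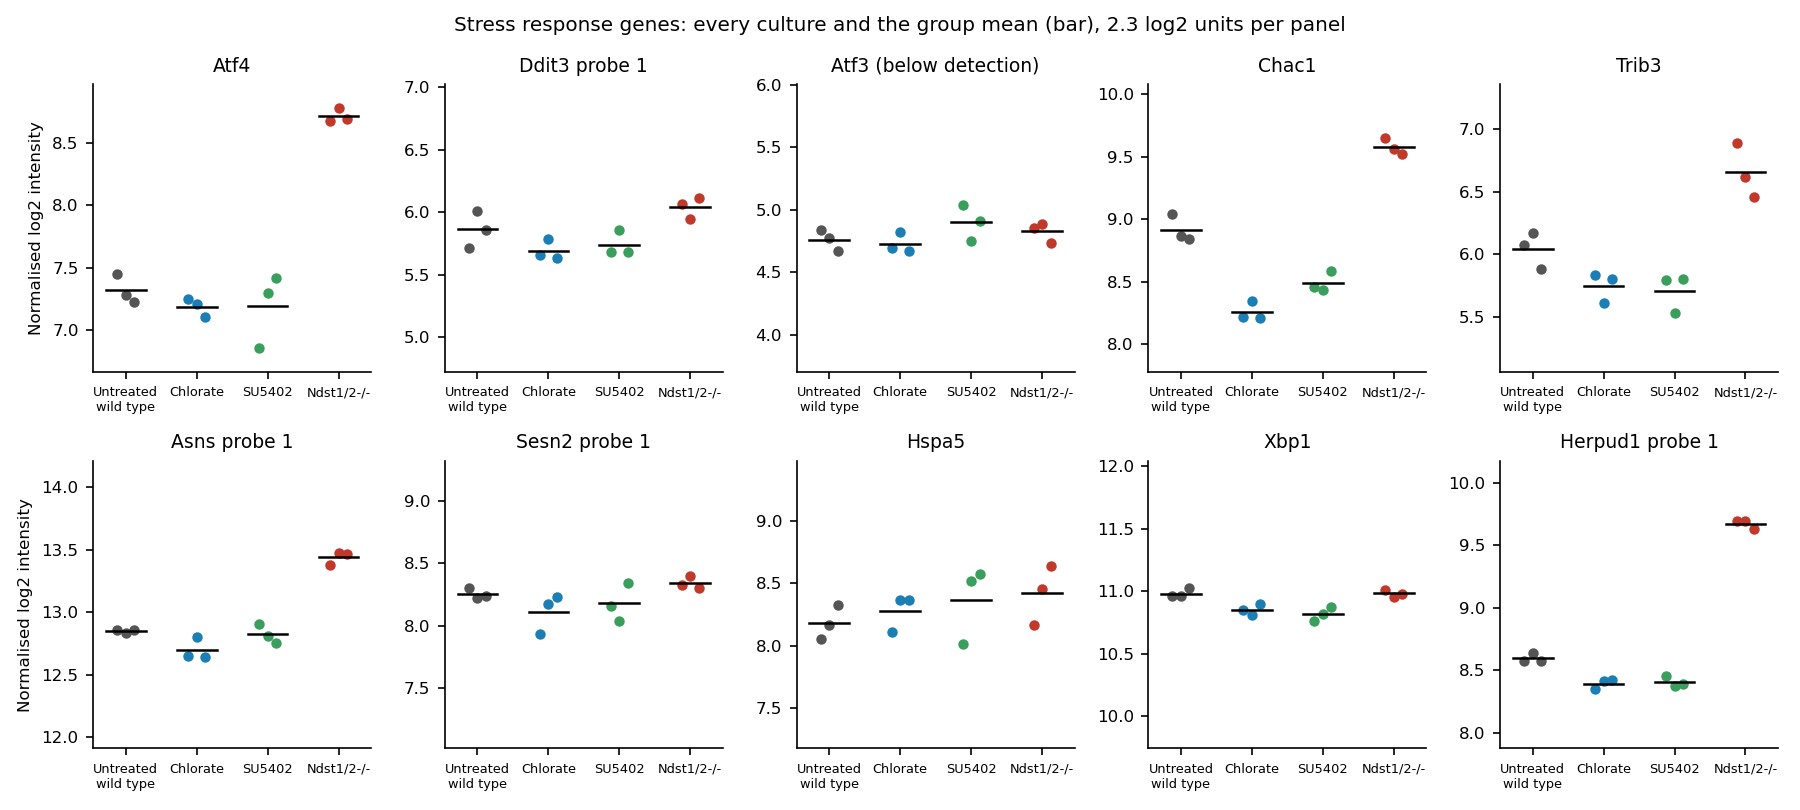
Normalised log2 intensity (vertical axes, each spanning the same number of log2 units) of the first probe of each of the 10 genes in the 3 cultures of the 4 groups. Points are cultures and bars group means. For Atf4, Chac1, Trib3, Asns and Herpud1 the 3 Ndst1/2-/- points lie above all 9 wild-type points, and Atf3 was below detection. The share of all tested probes placed in this way is not given here. Of all tested probes, 30.4% were called higher in Ndst1/2-/- than in untreated cells.

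The remaining regulators and ER genes gave smaller differences. Ddit3, on chromosome 10, encodes the transcription factor CHOP, known for its role in cell death during stress. Its first probe read 5.72, 6.01 and 5.86 in untreated and 6.06, 5.95 and 6.11 in Ndst1/2-/- cells, and its second 5.81, 5.82 and 5.66 against 6.07, 5.74 and 5.91. Both pairs of groups overlapped, and the differences were 0.18 ± 0.08 and 0.14 ± 0.09 (limma with Benjamini-Hochberg, adjusted p = 0.0824 and 0.21). Without untreated culture 2 the first probe was called (0.25, limma adjusted p = 0.0231).

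Sesn2, on chromosome 4, encodes a stress-induced inhibitor of mTORC1 signalling. Its probes differed between Ndst1/2-/- and untreated cells by 0.09 ± 0.09 and 0.16 ± 0.10 log2 units (limma with Benjamini-Hochberg, adjusted p = 0.399 and 0.157). Neither was called, although the second probe read 6.19, 6.33 and 6.15 in Ndst1/2-/- cells against 6.03, 6.02 and 6.12 in untreated cells, without overlap.

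Hspa5, on chromosome 2, encodes the ER chaperone BiP, the usual readout of the ATF6 and XBP1 branches. It read 8.05, 8.17 and 8.33 in untreated cells, 8.11, 8.36 and 8.37 with chlorate, 8.02, 8.52 and 8.57 with SU5402, and 8.17, 8.46 and 8.64 in Ndst1/2-/- cells. All groups overlapped, and the culture numbered 1 was the lowest in each of the 4 groups. The difference of 0.24 ± 0.15 log2 units in Ndst1/2-/- cells was not called (95% interval -0.09 to 0.57; limma with Benjamini-Hochberg, adjusted p = 0.188). The difference in Ndst1/2-/- cells was called in 1 of 27 alternatives, with the culture number as a block (limma adjusted p = 0.0185). The 2 arrays of chlorate culture 3 differed by 0.50 log2 units for this probe, more than any difference between its group means.

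Xbp1, on chromosome 11, encodes the transcription factor activated by IRE1 splicing. It read 10.96, 10.96 and 11.02 in untreated and 11.01, 10.95 and 10.98 in Ndst1/2-/- cells. These groups overlapped fully, with a 95% interval of the log2 difference from -0.12 to 0.12 (limma with Benjamini-Hochberg, adjusted p = 0.997). Atf3, on chromosome 1, a stress-induced repressor and activator of the ATF family, was detected on 0 of 4 arrays in 3 groups and on 1 of 4 with SU5402. It was not tested, and its level is known only to be not well above background.

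Chlorate, an inhibitor of sulfation not limited to heparan sulfate, was given to wild-type cells for 24 h. This comparison therefore does not repeat that of the mutant line. Chac1, Asns, Ddit3 and Herpud1 were each lower by at least 1 probe, and no member was higher. With limma and Benjamini-Hochberg, 4 of 14 member probes were lower and 0 higher, where 14.2% of all tested probes were called lower and 28.4% in either direction. The median log2 difference was -0.18 over the member probes and -0.0072 over all tested probes. Chac1 fell by 0.66 log2 units (SE 0.07; limma, adjusted p = 2.59e-05), which is 1.58-fold, as far below untreated as Ndst1/2-/- cells stood above it. The second Asns probe fell by 0.31 (SE 0.06; adjusted p = 0.00133), while the other two probes differed by -0.15 and -0.19 and were not called (adjusted p = 0.0937 and 0.06).

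The second Ddit3 probe read 5.51, 5.32 and 5.43 with chlorate, below the 5.66 to 5.82 of untreated cells, and fell by 0.34 log2 units (SE 0.09; limma with Benjamini-Hochberg, adjusted p = 0.0152). That call was lost without untreated culture 2 (limma adjusted p = 0.053) or chlorate culture 2 (adjusted p = 0.06), and the first Ddit3 probe was not called (-0.17 ± 0.08, adjusted p = 0.154). The first Herpud1 probe fell by 0.20 (SE 0.05; limma, adjusted p = 0.0116), and the second differed by -0.18 ± 0.07 (adjusted p = 0.0824). Trib3 differed by -0.29 ± 0.12 with no overlap between the groups and was not called (limma adjusted p = 0.0813; 0.0476 without Ndst1/2-/- culture 1). Hspa5 (0.10 ± 0.15), Xbp1 (-0.13 ± 0.05) and both Sesn2 probes (-0.14 ± 0.09 and -0.12 ± 0.10) were not called either.

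Scaling bore on this comparison. With arrays scaled to a common median in place of quantile normalization, 7 member probes were lower with chlorate, and the share of all called probes that were higher went from 50.1% to 37.7%. The median of all probes moved from -0.0072 to -0.053.

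SU5402 asked about blocking the FGF receptors themselves. Chac1, Xbp1 and 1 of the 2 Herpud1 probes were lower and no member was higher. With limma and Benjamini-Hochberg, 3 of 14 member probes were lower, where 11.6% of all tested probes were called lower and 23.5% in either direction. The median was -0.14 over the member probes and -0.0054 over all tested probes. Chac1 fell by 0.43 log2 units (SE 0.07; limma, adjusted p = 0.00109), or 1.34-fold.

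The first Herpud1 probe fell by 0.19 (SE 0.05; limma with Benjamini-Hochberg, adjusted p = 0.0195). This call was lost without untreated culture 2 (adjusted p = 0.0711), SU5402 culture 2 (0.0656) or SU5402 culture 3 (0.0588). The second Herpud1 probe differed by -0.18 ± 0.07 and was not called (limma adjusted p = 0.0899). Xbp1 read 10.76, 10.82 and 10.87 with SU5402, below all 3 untreated cultures, and fell by 0.16 (SE 0.05; limma, adjusted p = 0.0468). The Xbp1 call was lost in 14 of 27 alternatives, among them the removal of any untreated culture, with adjusted p up to 0.315. Trib3 lay just past the threshold (-0.33 ± 0.12; limma, adjusted p = 0.0567), with all 3 SU5402 cultures below the untreated ones. It was called in 8 of 27 alternatives, among them without untreated culture 3 (adjusted p = 0.0404), Ndst1/2-/- culture 1 (0.032) or Ndst1/2-/- culture 3 (0.0443). The Asns probes differed by -0.06 to 0.07, the Ddit3 probes by -0.20 and -0.12, and the Sesn2 probes by -0.16 and -0.07, and none was called.

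**Figure D3:**
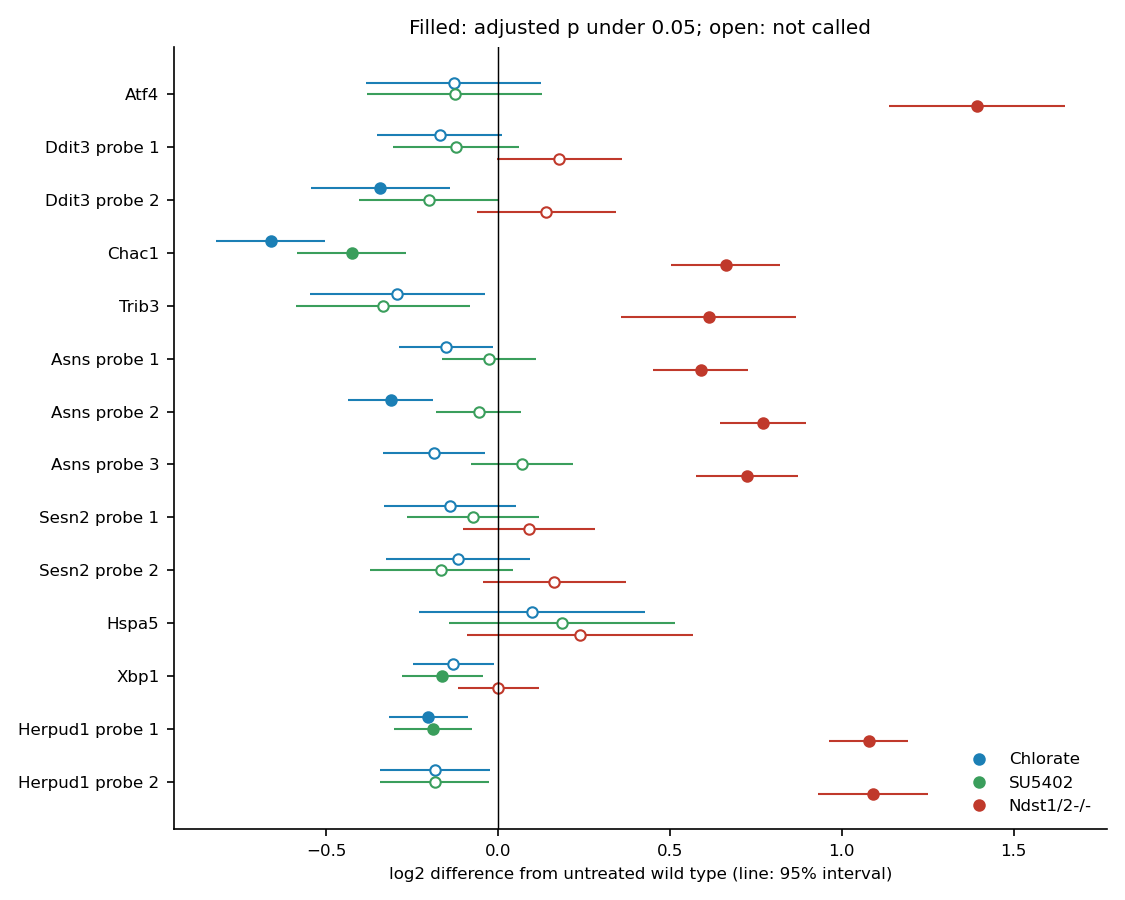
log2 difference from untreated wild-type cells (horizontal axis) of the 14 tested member probes with chlorate (blue), SU5402 (green) and in Ndst1/2-/- cells (red). Points are estimates, lines 95% intervals, and filled points have a limma adjusted p under 0.05: 8 filled red points lie right of 0, and all 7 filled blue and green points lie left of it.

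The 3 comparisons with untreated cells share the same 3 untreated cultures, so their values are not independent of one another. The groups were therefore also set against each other directly. Between the treatments, 1 of 14 member probes differed (1.04% of all tested probes were higher with SU5402 than with chlorate, and 2.54% differed either way). It was the second Asns probe, higher with SU5402 by 0.26 ± 0.06 log2 units (limma with Benjamini-Hochberg, adjusted p = 0.0363). The call was lost in 14 of 27 alternatives, with adjusted p up to 0.393, including without any single chlorate culture (0.0514 to 0.117), any single SU5402 culture (0.0757 to 0.123), untreated culture 3 (0.0546) or Ndst1/2-/- culture 2 (0.0531). Chac1 was 0.24 ± 0.07 higher with SU5402 without overlap, and was not called (95% interval 0.08 to 0.39; limma, adjusted p = 0.118). Atf4 differed by 0.00 ± 0.12 (95% interval -0.25 to 0.26).

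Against chlorate-treated wild-type cells, 12 of 14 member probes differed in Ndst1/2-/- cells, where 58.3% of all tested probes did. Against SU5402-treated cells the count was again 12 of 14, where 57.9% of all tested probes differed. Every one of these calls was higher in Ndst1/2-/- cells, whereas of all called probes 49.8% were higher against chlorate and 49.1% against SU5402. The calls of the first and second Sesn2 probes against chlorate were lost in 12 and 8 of 27 alternatives. Against SU5402 the calls of the second Sesn2 probe and of Xbp1 were lost in 4 and 6. Chac1 stood 1.32 ± 0.07 log2 units above chlorate (limma with Benjamini-Hochberg, adjusted p = 9.34e-09) and 1.09 ± 0.07 above SU5402 (adjusted p = 5.93e-08). The Ddit3 probes, not called against untreated cells, were higher than with chlorate by 0.35 ± 0.08 and 0.48 ± 0.09 (limma, adjusted p = 0.00322 and 0.000661). Hspa5 was not called in either (0.14 ± 0.15 and 0.05 ± 0.15). These comparisons differ in both genotype and treatment. The F-test for any difference among the 4 groups called 12 of 14 member probes, where it called 69.0% of all tested probes; the first Sesn2 probe and Hspa5 were not called (limma adjusted p = 0.138 and 0.483).

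By mean intensity the arrays fell into a brighter set A (culture 1 and array 1 of culture 3 in each group, 412 to 454) and a dimmer set B (culture 2 and array 2 of culture 3, 369 to 400). The 8 probes called in Ndst1/2-/- cells were called in each set alone. The first Ddit3 probe was called there in set A (0.30, limma adjusted p = 0.0107) but not in set B (0.09, adjusted p = 0.524). It was also called with array set as a block (0.20, limma adjusted p = 0.0198). Atf4 differed by 1.39 in set A and 1.43 in set B, Chac1 by 0.65 and 0.68, and Trib3 by 0.68 and 0.53. The chlorate difference of Chac1 was -0.69 in set A and -0.62 in set B, called in both. The SU5402 difference of Chac1 was -0.43 in set A (limma adjusted p = 0.0372) and -0.34 in set B (adjusted p = 0.069), so the call was lost in set B. The SU5402 difference of Atf4 took opposite signs in the sets, -0.24 and 0.15. The chlorate calls of the second Ddit3 probe and the first Herpud1 probe, and the SU5402 calls of Herpud1 and Xbp1, were lost in both sets, where each group had 2 arrays. The chlorate call of the second Asns probe was lost in set A (-0.30, limma adjusted p = 0.0531) and held in set B (-0.31, adjusted p = 0.0437).

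**Figure D4:**
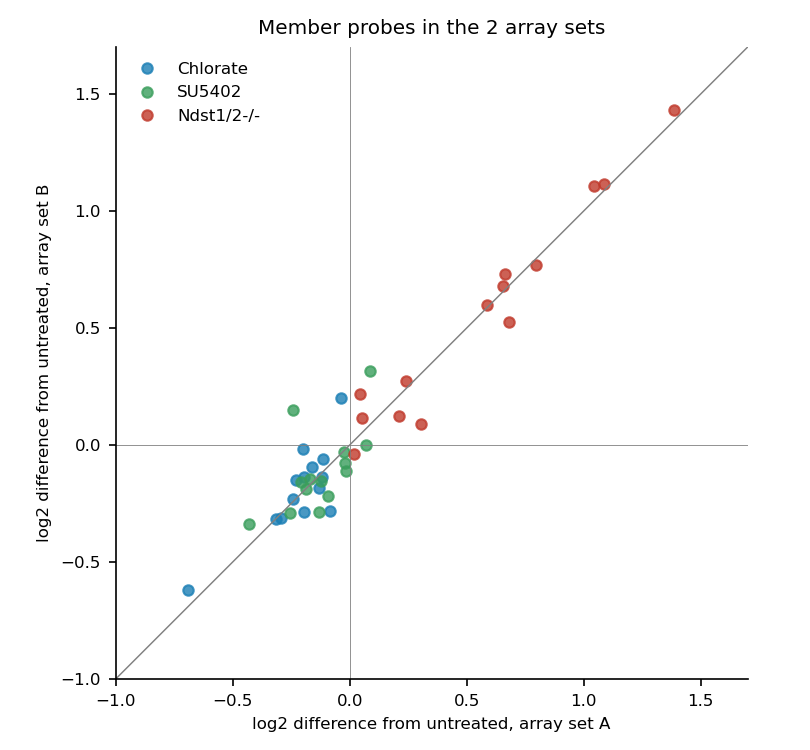
log2 difference from untreated cells of the 14 tested member probes in array set A (horizontal axis) and array set B (vertical axis), for chlorate (blue), SU5402 (green) and Ndst1/2-/- cells (red). The grey diagonal marks equal values; the Atf4 point lies at 1.39 and 1.43, and 1 SU5402 point, Atf4, lies left of 0 and above it at -0.24 and 0.15.

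Other genes of the pathway were read from 3 lists, each gene by its brightest probe. Of 41 tested ATF4 pathway genes (amino acid synthesis, transport, tRNA charging and stress regulators), 27 were higher and 5 lower in Ndst1/2-/- cells, beside 30.4% and 32.2% of all tested probes. The median log2 difference was 0.36 over the list. Those with the greatest changes were Gpt2, an alanine transaminase (1.94 ± 0.10), Cth, which makes cysteine by transsulfuration (1.92 ± 0.08), the angiogenic factor gene Vegfa (1.67 ± 0.06) and the stress-induced chromatin protein gene Nupr1 (1.62 ± 0.07). Mthfd2, a mitochondrial folate enzyme (0.24 ± 0.10; limma, adjusted p = 0.0551), and the tRNA synthetase genes Sars (0.06 ± 0.07) and Eprs (0.17 ± 0.09) were not called. The p53 target and cell cycle inhibitor gene Cdkn1a, also on this list, was lower (-1.06 ± 0.08). Trib2 (-0.75 ± 0.08), Ddit4 (-0.72 ± 0.07), Sesn3 (-0.51 ± 0.11) and Wars (-0.23 ± 0.07) were lower too. Cdkn1a was higher with chlorate (0.54 ± 0.08) and with SU5402 (0.52 ± 0.08).

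With chlorate the same list had 4 genes higher and 15 lower, beside 14.2% of all tested probes in each direction, with a median of -0.14. Vegfa (0.98 ± 0.06) and the sestrin gene Sesn3 (0.81 ± 0.11) rose, and the cationic amino acid transporter gene Slc7a3 (-0.68 ± 0.07) and the pseudokinase gene Trib2 (-0.66 ± 0.08) fell. Gpt2 (0.05 ± 0.10), Cth (-0.14 ± 0.08) and the proline synthesis gene Aldh18a1 (-0.13 ± 0.08) were not called. With SU5402 there were 5 higher and 11 lower, beside 11.9% and 11.6%, with a median of -0.07. The called genes with the greatest changes were again Vegfa (0.68 ± 0.06), Slc7a3 (-0.60 ± 0.07), Sesn3 (0.57 ± 0.11) and Trib2 (-0.56 ± 0.08). The serine synthesis gene Psat1 (-0.02 ± 0.06), the mitochondrial serine hydroxymethyltransferase gene Shmt2 (-0.13 ± 0.06) and Aldh18a1 (-0.06 ± 0.08) were not called.

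Of 12 tested genes of eIF2, its kinases and its regulators, 3 were higher and 4 lower in Ndst1/2-/- cells, close to the 30.4% and 32.2% of all tested probes. The kinase gene Eif2ak4 (GCN2) and the eIF2 alpha subunit gene Eif2s1 were not among these 12. Impact, an imprinted inhibitor of the eIF2 kinase GCN2, fell by 1.29 log2 units (SE 0.05; limma with Benjamini-Hochberg, adjusted p = 3.84e-10), from 11.19 to 9.90. The eIF2 beta subunit gene Eif2s2 rose by 0.55 ± 0.06, and Eif2ak2, the kinase PKR (-0.45 ± 0.06), and Eif2b1, a subunit of the exchange factor of eIF2 (-0.33 ± 0.06), fell. The kinase genes Eif2ak1 (-0.14 ± 0.07) and Eif2ak3, which encodes PERK (0.03 ± 0.06), and the eIF2 gamma subunit gene Eif2s3x (-0.07 ± 0.08) were not called. With chlorate 3 were higher (Eif2s2 0.43 ± 0.06, Eif2ak2 0.30 ± 0.06 and Eif2ak3 0.23 ± 0.06), and the eIF2 phosphatase subunit gene Ppp1r15b was lower (-0.26 ± 0.08), beside 14.2% of all tested probes in each direction. With SU5402, Eif2s2 (0.38 ± 0.06) and Eif2ak2 (0.21 ± 0.06) were higher and 0 lower, beside 11.9% and 11.6% of all tested probes.

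The ER chaperone and unfolded protein response list held 32 tested genes. In Ndst1/2-/- cells 9 were higher and 9 lower, near the 30.4% and 32.2% of all tested probes, with a median of -0.03. The ER degradation genes Derl2 (-1.17 ± 0.11) and Edem1 (-0.89 ± 0.12, detected on 2 of 4 Ndst1/2-/- arrays) and the disulfide isomerase gene P4hb (-0.66 ± 0.07) fell, and the ER-anchored transcription factor gene Creb3l2 rose (0.80 ± 0.08). Hsp90b1, the ER chaperone GRP94 (0.07 ± 0.06), and the disulfide isomerase genes Pdia4 (-0.06 ± 0.06) and Pdia5 (-0.02 ± 0.07) were not called. With chlorate 10 were higher and 0 lower, beside 14.2% of all tested probes in each direction, with a median of 0.12. Under median scaling 4 of the 32 were higher. The 10 included Pdia6, a disulfide isomerase gene (0.62 ± 0.07), the calcium-binding chaperone gene Calr (0.39 ± 0.07), Creb3l2 (0.38 ± 0.08) and Edem2 (0.37 ± 0.08). With SU5402 5 were higher and 0 lower, beside 11.9% and 11.6% of all tested probes, with a median of 0.10. Under median scaling 2 of the 32 were higher. Among the 5 were Pdia6 (0.36 ± 0.07), Edem2 (0.28 ± 0.08), Hsp90b1 (0.25 ± 0.06) and Pdia4 (0.23 ± 0.06).

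**Figure D5:**
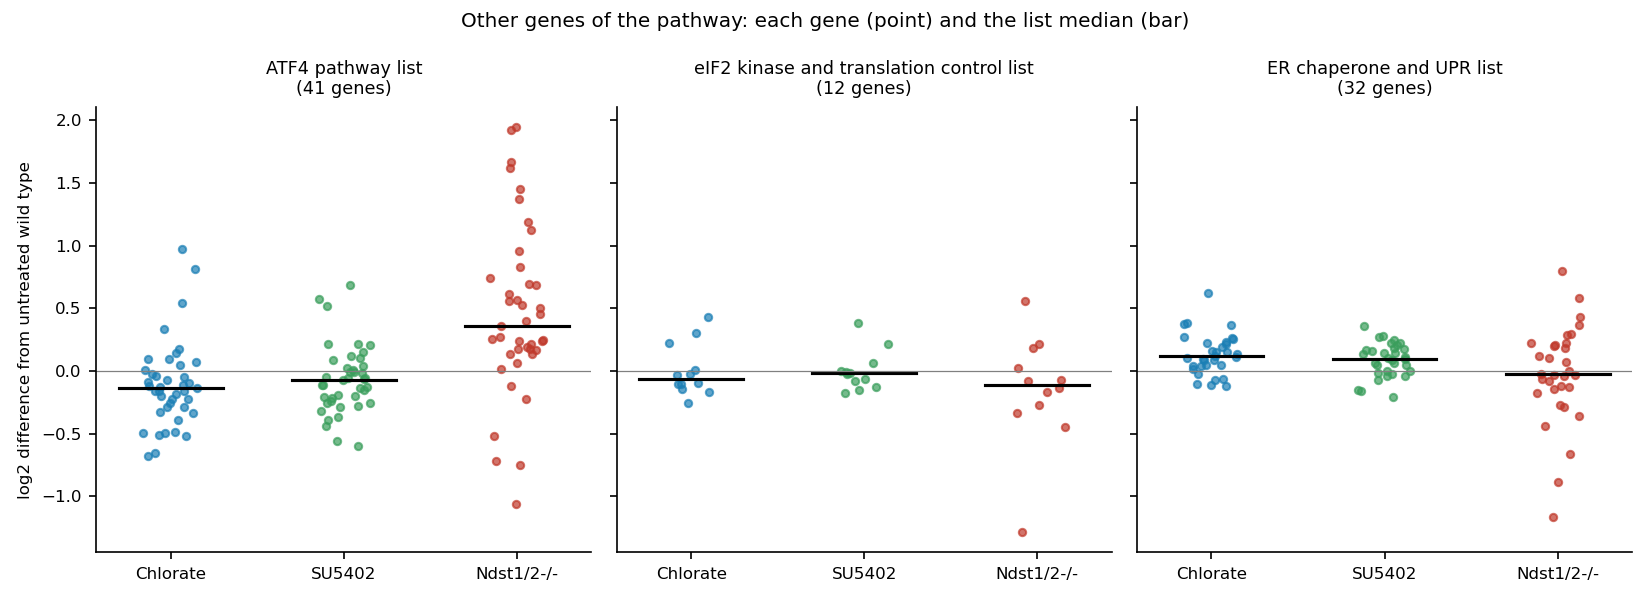
log2 difference from untreated wild-type cells (vertical axis) of the tested genes of 3 lists with chlorate (blue), SU5402 (green) and in Ndst1/2-/- cells (red). Each point is a gene and each bar the list median: in Ndst1/2-/- cells the median was 0.36 for the ATF4 pathway and -0.03 for the ER list, whereas with chlorate these were -0.14 and 0.12.

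Likeness was measured as the root mean square difference of log2 values over the 12 cultures, each probe centred on its own mean, across 12562 probes with a symbol. The probes closest to Atf4 were Shmt2 (0.119), the ATF4-related transcription factor gene Atf5 (0.138), Maneal (0.138), Notum (0.142) and Rmdn3 (0.148), where the median probe was at 0.670 and the nearest member, the first Herpud1 probe, at 0.194. Closest to Chac1 were the large neutral amino acid transporter gene Slc7a5 (0.108), Laptm5 (0.115), Tril (0.128), Clca3b (0.130) and Klf5 (0.136). Closest to the first Herpud1 probe were Slc9a3r2 (0.037), Thtpa (0.053), Metrn (0.062), Olfr985 (0.066) and Fblim1 (0.074), and its own second probe stood at 0.077. These are descriptions over 12 cultures of 4 groups, and the points share those cultures and arrays.

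Of the serine and folate enzymes, Shmt2 rose in Ndst1/2-/- cells by 1.37 ± 0.06 and 0.98 ± 0.08 log2 units on its 2 probes, with Phgdh (0.36 ± 0.07) and Psat1 (0.25 ± 0.06). With chlorate Mthfd2 (-0.51 ± 0.10), Phgdh (-0.34 ± 0.07), Psat1 (-0.23 ± 0.06) and the first Shmt2 probe (-0.20 ± 0.06) were lower, and with SU5402 Mthfd2 (-0.44 ± 0.10) and Phgdh (-0.39 ± 0.07). The metallothionein genes Mt1 and Mt2 were lower in all 3 comparisons with untreated cells, by -1.20 and -1.42 in Ndst1/2-/- cells, -1.01 and -1.27 with chlorate, and -0.67 and -0.58 with SU5402.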

How the data were processed

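The authors deposited, per the file headers, the mean bead intensity of each probe on each array, not normalized, and a detection p-value against negative control beads. The submitters' processing notes name BeadStudio without a version. A table of processed intensity was also deposited, with the normalization not stated. It has 53.11% of its values at 20, and served only as an alternative.

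Background was removed by limma's neqc (limma 3.58.1, R 4.3.3) using the detection p-values, an offset of 16 was added, and values were quantile normalized on the log2 scale. Fold changes are on intensity plus this offset, which understates those of weak probes. The 2 arrays of culture 3 were averaged, giving 12 cultures. Probes with a mean detection p-value under 0.01 in at least 3 cultures were tested (13377 of 25697). A single limma model of the 4 groups gave 6 comparisons and an F-test, with Benjamini-Hochberg adjustment over all tested probes within each comparison, called at an adjusted p under 0.05. SE are moderated. Between the 2 arrays of culture 3 the root mean square difference was 0.176 to 0.190 log2 units, and between cultures of 1 group it was 0.170 to 0.203, so the SE and p-values measure spread between these samples that may be largely technical. The number of arrays limits the precision.

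Platform annotation gave 23978 probes 1 symbol, 1719 none and 0 several. Symbols can be old, and 0 changed on update through the reference gene table. The array names no genome build, so chromosomes only are given, except for RefSeq promoter windows.

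The pathway lists had 62, 18 and 50 symbols, old and current ones both counted, of which 47, 13 and 40 genes were on the array and 41, 12 and 32 were tested. From each list up to 4 called genes with the greatest absolute change and up to 3 not called, in list order, are named in each comparison. On the ATF4 list the 5 genes lower in Ndst1/2-/- cells are named too. For likeness the 5 closest probes to Atf4 and to the members with the greatest range of group means are named. Members, lists and rules were chosen with earlier results of these data known. The model was tested on simulated data. Same-numbered cultures correlated by -0.009 to 0.19 after removing group means, so the numbers were not taken to pair cultures. Even so, 9 of 12 cultures correlated best with their own number, and cultures 1 and 2 fell in different array sets. Alternatives changed the background correction, scaling, filter, value table, block, handling of arrays, array set, moderation, call rule and cultures left out.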

Additional observations from a re-analysis of the deposited data

How the results depend on the processing

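Over 27 alternatives to each of the 6 comparisons of the 14 member probes, 2135 of 2268 values kept their side of the threshold (42 of them, all uncalled, turned sign), 85 lost a call, 48 gained one and 0 called values reversed. The 8 increases in Ndst1/2-/- against untreated cells held in all alternatives. For chlorate against untreated cells, 4 member probes were called, which became 7 under median scaling, 7 with culture as a random block, 8 with array set as a block, 1 in set A, 2 in set B, 2 at an adjusted p under 0.01 and 1 at 1.5-fold or more. For SU5402 against untreated cells, 3 became 1 in set A, 0 in set B, 1 at 0.01 and 0 at 1.5-fold. With the culture number as a replicate block the count was 5, Hspa5 was called in Ndst1/2-/- cells (limma adjusted p = 0.0185), and 9 of 12 cultures correlated best with their own number. For SU5402 against chlorate, 1 became 2 without background correction, 2 with an offset of 50, 2 with the random block, 3 with the set block, and 0 under median scaling, with the authors' values, in either set, at 0.01 and at 1.5-fold. Leaving out 1 culture gave 3 to 5 calls for chlorate, 1 to 3 for SU5402 (1 without untreated 2 or SU5402 2) and 8 to 9 for Ndst1/2-/- against untreated, 0 to 1 for SU5402 against chlorate, 10 to 12 and 11 to 13 for Ndst1/2-/- against chlorate and SU5402, and 10 to 12 by the F-test. For the ATF4 list the ranges were 15 to 20, 10 to 16 (10 without untreated 2) and 28 to 32 with chlorate, SU5402 and in Ndst1/2-/- cells, for the eIF2 list 2 to 4 (2 without untreated 2 or chlorate 3), 1 to 3 (1 without untreated 3 or SU5402 1) and 5 to 7, and for the ER list 8 to 10, 3 to 6 (3 without SU5402 3) and 15 to 19. Median scaling left 4 ER list genes called with chlorate, 2 with SU5402, and 1 eIF2 list gene with SU5402, and without background correction the ER list had 8 with SU5402. It also moved the share of calls that were higher in Ndst1/2-/- cells against chlorate from 49.8% to 60%. Except where fewer arrays or a stricter rule set the count, the cause was not tested.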
